A study of Mus musculus with 3 samples.

Results

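Integrins are cell surface receptors made of 1 alpha and 1 beta subunit, and laminins are basement membrane proteins made of 1 alpha, 1 beta and 1 gamma chain. The genes of both families were taken by symbol, as every Itga, Itgb, Lama, Lamb and Lamc gene in the deposited list, which gave 37 of 22068 genes, of which 36 are described here. These were 18 integrin alpha subunits, 8 integrin beta subunits and 10 laminin chains. They were measured in C2C12, a mouse myoblast line that fuses into myotubes when serum is lowered, in 3 libraries of polyadenylated RNA taken at 12 h in differentiation medium with 2% horse serum. The control line carried an empty lentiviral vector, the overexpression line carried the same kind of vector with Linc-RAM, a long noncoding RNA of muscle, and the knockdown line expressed a short hairpin RNA against Linc-RAM. All 3 lines had been selected with blasticidin, so infection and selection were shared by the control. Whether a line was 1 clone or a pool of cells, and which hairpin was used, is not given in the labels. There was 1 library per line, so no difference described here has a replicate check within these data. The overexpression and knockdown ratios share their control library. The paper reports RT-qPCR for some of the genes, among them Myod1, Myog and Col4a1.

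Integrins carry force between the extracellular matrix and the actin cytoskeleton, and the alpha subunit largely sets which matrix protein is bound. Itga3, Itga6 and Itga7 bind laminin, Itga1, Itga2, Itga10 and Itga11 bind collagen, and Itga5, Itga8, Itgav and Itga2b bind proteins that hold the tripeptide RGD, such as fibronectin and vitronectin. In skeletal muscle the main laminin receptor is a pair of Itga7 and Itgb1, which ties the fibre to its basement membrane, and myoblasts also use Itga5 to hold fibronectin. The basement membrane of muscle contains laminins built on Lama2, with Lama4 and Lama5 as further alpha chains.

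The deposited RPKM values (reads scaled to gene length and to the mapped reads of the library) rested on 5130481 control, 2105513 overexpression and 1878146 knockdown reads, recovered from the values themselves. A gene was called measured when its mean over the 3 libraries was at least 1 RPKM, which 10172 genes were. Linc-RAM, listed as 2310015B20Rik, had 0 control, 1 overexpression and 0 knockdown reads and so does not check the labels. The myogenic regulators Myod1 (16.7, 34.1 and 9.76 RPKM, in the same order) and Myog (3.95, 22.1 and 3.60 RPKM) differed between the libraries. The summed level of 8 myoblast and muscle markers was 375, 556 and 213 RPKM, with 6 of them measured and Myh3 listed at 0 throughout. Most of the sum was Des, at 291, 386 and 145 RPKM. All 6 measured were above the control under overexpression, 5 of them with an interval that left out 1. Under knockdown 5 were below it, only 3 of them with an interval that left out 1, and Chrna1 was above it (32.9 against 28.7 RPKM). In bulk RNA fewer cells of a type and less RNA per cell cannot be told apart. The summed level of 7 fibroblast and tenocyte markers was 33.8, 42.5 and 40.6 RPKM, with 3 measured and Thy1, Tnmd, Lum and Tcf21 at 0. Most of this sum was Scx, at 29.3, 35.5 and 33.3 RPKM. Endothelial, leukocyte and Schwann or neural markers summed to at most 2.00 RPKM in any library. Of 5 epithelial markers only Krt14 was measured, the list summed to 8.81, 6.29 and 11.9 RPKM, and Epcam, Cdh1, Krt5 and Cldn4 were at 0. The part of these differences in the values below was not tested.

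Of the 36 genes, 15 were measured: 6 alpha subunits, 4 beta subunits and 5 laminin chains. All 3 laminin-binding alpha subunits, 2 of 4 RGD-binding subunits (Itga5 and Itgav) and 1 of 4 collagen-binding subunits (Itga11) were among them. The leukocyte alpha subunits Itgad, Itgae, Itgal, Itgam and Itgax were listed at 0 in all 3 libraries, as were Itga2, Itga9 and Lama3. The other 13 had at most 36 reads in any library. In the control the order of RPKM ran from Itgb1, the partner of most alpha subunits, at 83.0, through Itgb5 at 45.3 and Itga5 at 27.8, to Itga6 at 1.90 and Itgb7 at 0.802. Itga3, Lamb1, Lamc1 and Itga7 lay next to one another in that order between 19.7 and 16.8 RPKM, and with 1 library their order has no spread to be read against. In the overexpression library Itga7 stood second after Itgb1.

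**Figure D1:**
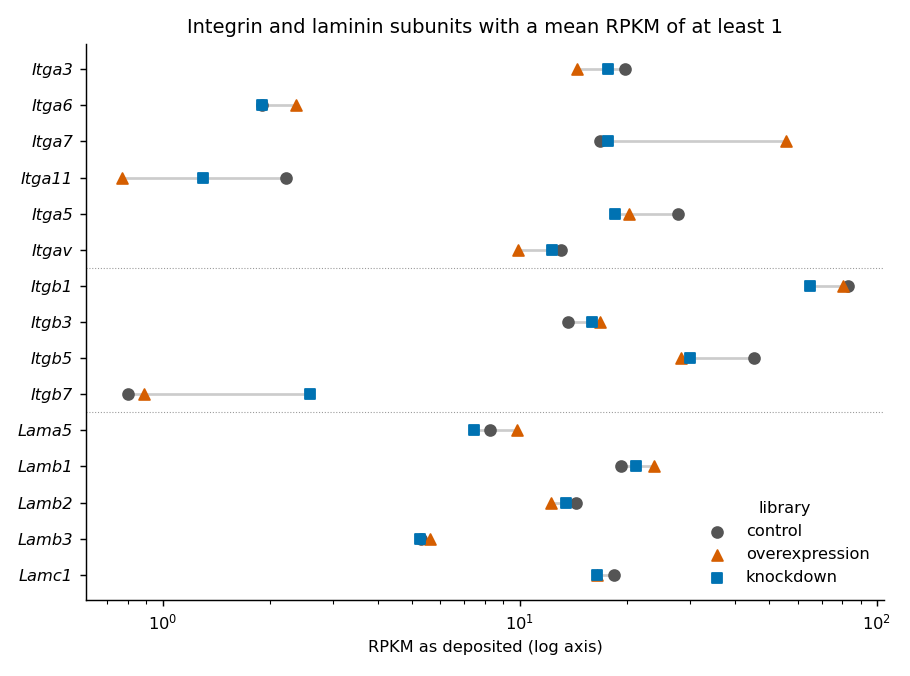
Deposited level of the 15 measured integrin and laminin genes, in RPKM on a log axis, with 1 point per gene for each of the control, overexpression and knockdown libraries. Itga7 stands at 55.8 RPKM in the overexpression library against 16.8 and 17.6 RPKM in the others, and Itgb7 at 2.59 RPKM in the knockdown library against 0.802 and 0.888 RPKM.

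With Linc-RAM overexpression, the laminin receptor subunit Itga7 was at least 2-fold higher than in the control, and the collagen receptor subunit Itga11 was at least 2-fold lower. The 2-fold criterion is the one given in the methods of the study, which also uses a lower one elsewhere. It was met upward by 1 of the 15 measured members and by 3.64% of all 10165 genes compared, and downward by 1 of 15 and by 3.47% of all genes. The median log2 ratio of overexpression to control was −0.04 over the 15 members and 0.0048 over all genes. Above and below the control lay 7 and 8 members, and 5125 and 5040 of all genes. Under knockdown, only Itgb7 was at least 2-fold higher than the control (3.38% of all genes) and no member was at least 2-fold lower (4.19% of all genes). The median log2 ratio of knockdown to control was −0.10 over the members and −0.01 over all genes. Above and below the control lay 4 and 11 members, and 4920 and 5245 of all genes. For 3 of these 11 members the counting interval given below left out 1. Between overexpression and knockdown, Itga7 was at least 2-fold higher (5.83% of 10146 genes) and Itgb7 at least 2-fold lower (5.11%). Itgb7 was under 1 RPKM in the other pair of libraries and passed the filter only through the knockdown library, in which it was high, so its place among the measured genes is not independent of its ratio.

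**Figure D2:**
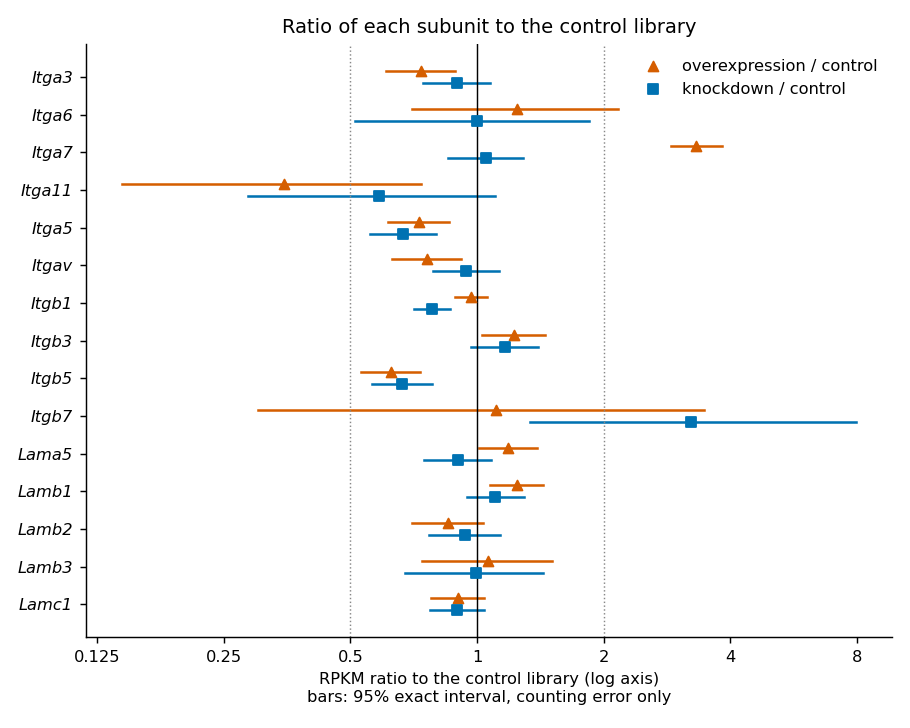
Ratio of RPKM to the control library for the 15 measured genes, under overexpression (triangles) and knockdown (squares), on a log axis with the exact 95% counting interval as a bar and dotted lines at 0.5 and 2. Itga7 lies above 2 and Itga11 below 0.5 under overexpression, Itgb7 lies above 2 under knockdown, and the other points lie between the dotted lines.

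Among the laminin-binding alpha subunits, Itga7 alone stood apart. Itga7 spans 128370869 to 128395333 on chromosome 10 (mm9 build, forward strand), and 1 base of its exons overlaps Mettl7b on the opposite strand. It was at 16.8 RPKM in the control (346 reads), 55.8 RPKM under overexpression (472 reads) and 17.6 RPKM under knockdown (133 reads). The overexpression library was thus 3.32-fold above the control, with an exact (Clopper-Pearson) 95% interval from the recovered reads of 2.89 to 3.83, and 3.17-fold above the knockdown library (2.61 to 3.87). The ratio of knockdown to control was 1.05 (0.853 to 1.29), so a difference between these libraries of the size seen under overexpression lay outside the interval. Here and below an interval covers counting error only.

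Itga3, which pairs with Itgb1 and binds laminins that hold Lama5, was at 19.7 RPKM in the control, 14.5 RPKM under overexpression and 17.7 RPKM under knockdown. It was 0.734 of the control under overexpression (0.607 to 0.884), and its interval for knockdown held 1 (0.745 to 1.07). Itga6, a laminin receptor of many progenitor cells, was low at 1.90, 2.37 and 1.90 RPKM, from 41, 21 and 15 reads. At that depth its ratio of overexpression to control had an interval of 0.701 to 2.16, which held both 1 and 2. Itga7 and Itga3 therefore lay on opposite sides of the control in the overexpression library, and Itga7 made up 76.8% of the summed RPKM of the 3 laminin-binding subunits there, against 43.7% in the control and 47.4% under knockdown. By reads rather than RPKM these shares were 73.6% (exact interval 70.0 to 77.0), 39.4% (36.2 to 42.7) and 43.0% (37.4 to 48.8), and the overexpression interval did not meet the others.

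Itga5, the fibronectin receptor subunit, lies on the reverse strand of chromosome 15 from 103174720 to 103197194. It was at 27.8 RPKM in the control, 20.2 RPKM under overexpression and 18.5 RPKM under knockdown, from 622, 186 and 152 reads. It was below the control in both lines, at 0.729 (0.615 to 0.860) and 0.668 (0.555 to 0.798), while overexpression over knockdown was 1.09 (0.876 to 1.36). Itgav, which pairs with several beta subunits and binds vitronectin and other RGD proteins, was at 13.0, 9.90 and 12.3 RPKM. Its ratio to the control was 0.759 (0.626 to 0.915) under overexpression and 0.943 (0.785 to 1.13) under knockdown. Over 634 bases, 5.90% of its exon length, Itgav overlaps the gene Gm13684 on the opposite strand, and whether the libraries kept strand is not given in the sources used here. The other RGD-binding subunits were barely read. Itga2b, the platelet subunit, had 4, 3 and 1 reads and Itga8 had 0, 0 and 1.

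Itga11, a collagen receptor of mesenchymal cells, lies on the forward strand of chromosome 9 from 62525633 to 62631789. It was at 2.21 RPKM in the control, 0.770 RPKM under overexpression and 1.29 RPKM under knockdown, from 56, 8 and 12 reads. The control was thus the highest of the 3 libraries. The overexpression ratio was 0.348 (0.143 to 0.734), the knockdown ratio was 0.585 with an interval that held 1 (0.286 to 1.10), and overexpression over knockdown was 0.595 (0.211 to 1.58). Itga10 and Itga1, the other collagen-binding subunits with any reads, had at most 7 and 1 in a library. Itga4, which binds fibronectin and the adhesion molecule Vcam1, had 3, 6 and 0 reads.

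Read together as a pool of RPKM, the integrin alpha subunits were composed differently in the overexpression library. Laminin-binding subunits made up 46.9% of the summed alpha RPKM in the control, 69.7% under overexpression and 52.8% under knockdown. The RGD-binding share was 50.1%, 29.3% and 44.2%, and the collagen-binding share was 2.97%, 0.738% and 3.01%. The last value rested partly on 7 reads of Itga10, and over measured subunits alone the collagen-binding share was 2.72%, 0.743% and 1.87%, with knockdown then below the control. Itga7 alone was 20.5%, 53.5% and 25.0% of the pool, while Itga5 was 33.9%, 19.4% and 26.3%. In the control Itga5 was thus the most abundant alpha subunit, and under overexpression Itga7 was. The RPKM of Itga7 over that of Itga5 was 0.604 in the control, 2.76 under overexpression and 0.9503 under knockdown. By reads the laminin-binding share was 43.0%, 64.7% and 47.8% and the RGD-binding share 53.8%, 33.9% and 49.1%, in the same order.

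**Figure D3:**
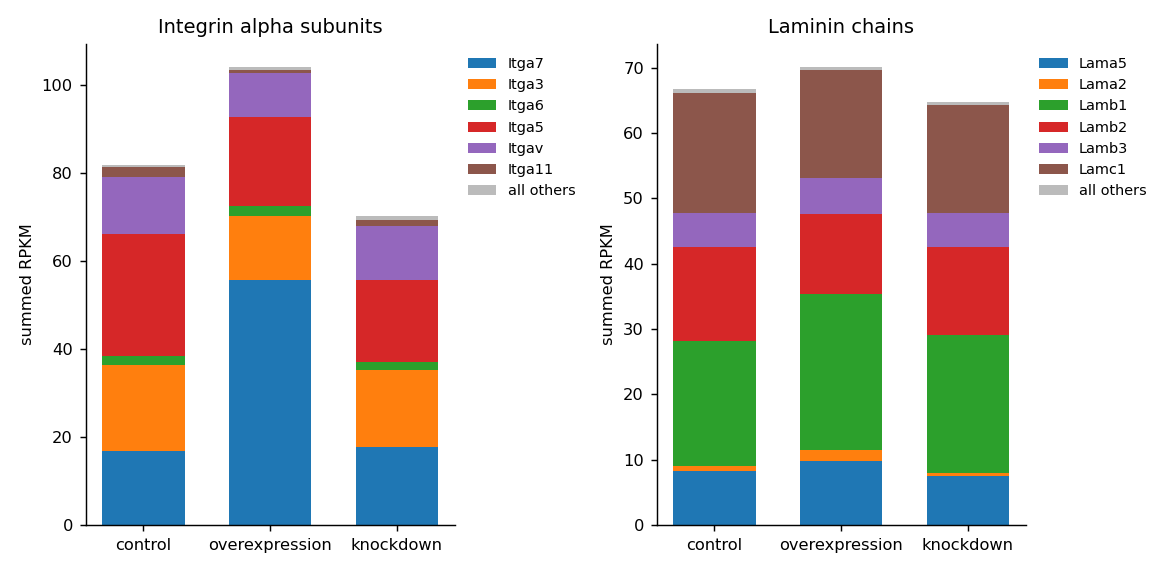
Summed RPKM of the integrin alpha subunits and of the described laminin chains in the control, overexpression and knockdown libraries, as stacked bars from 0 with 1 colour per gene or group of genes. The alpha subunits sum to 81.9, 104 and 70.4 RPKM and Itga7 fills 53.5% of the overexpression bar, while the laminin chains sum to 66.7, 70.1 and 64.7 RPKM.

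Of the beta subunits, Itgb1, which pairs with Itga7, Itga5, Itga3 and Itga11, was at 83.0 RPKM in the control, 80.5 RPKM under overexpression and 64.9 RPKM under knockdown, from 1787, 711 and 511 reads. With overexpression it was at 0.969 of the control (0.888 to 1.06), and under knockdown at 0.781 (0.707 to 0.862). Overexpression over knockdown was 1.24 (1.11 to 1.39), so the knockdown library was the low one of the 3. The RPKM of Itga7 over that of Itgb1 was 0.202 in the control, 0.693 under overexpression and 0.272 under knockdown. The summed alpha subunits over Itgb1 came to 0.987, 1.29 and 1.09.

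Itgb5, which joins Itgav to bind vitronectin, lies on the forward strand of chromosome 16 from 33829751 to 33949239. It was at 45.3 RPKM in the control, 28.2 RPKM under overexpression and 30.01 RPKM under knockdown. Like Itga5 it was highest in the control, with ratios of 0.624 (0.530 to 0.731) and 0.663 (0.562 to 0.780), and the lines differed from each other by less than counting error (overexpression over knockdown 0.940, 0.765 to 1.16). Itgb3, another partner of Itgav, was at 13.7, 16.8 and 15.9 RPKM. Its ratio was 1.22 under overexpression (1.03 to 1.45) and 1.16 under knockdown (0.969 to 1.39). Itgb3 thus made up 9.51%, 13.0% and 14.01% of the summed beta RPKM and Itgb5 31.4%, 21.9% and 26.4%.

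Itgb7, a subunit best known from lymphocytes that home to the gut, lies on the reverse strand of chromosome 15 from 102046426 to 102062366. It was at 0.802 RPKM in the control, 0.888 RPKM under overexpression and 2.59 RPKM under knockdown, from 11, 5 and 13 reads. The knockdown library was 3.23-fold above the control (1.33 to 7.96), and overexpression over knockdown was 0.343 with an interval that just held 1 (0.0958 to 1.03). The alpha subunits that pair with it had few or no reads: Itgae was listed at 0 in every library and Itga4 had none in the knockdown library. The summed level of the 5 leukocyte markers was 1.39 RPKM in the control, 0.594 RPKM under overexpression and 2.00 RPKM under knockdown, with Ptprc and Cd3e at 0. The part of this in Itgb7 was not tested. Of the unmeasured beta subunits, Itgb4, the hemidesmosome subunit that pairs with Itga6, had 13, 4 and 0 reads, Itgb8 had 10, 5 and 2, Itgb6 had 1, 5 and 0, and Itgb2 of leukocytes had 1, 2 and 0.

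Measured members with an entry in the RefSeq promoter table (GRCm38.p6) were taken by their ratios to the control. Those chosen lay at least 2-fold from it in a line, or below it in both lines with intervals that left out 1. This gave the 4 integrin genes below, whose promoter sequences are shown. Each runs from 250 bases before the start RefSeq gives to 50 after it, which is not in every case the GENCODE start printed above, is written on the strand of the gene, and was placed by its only exact match on the chromosome in mm9. Capitals mark CANNTG, the E-box letters that myogenic factors such as Myod1 bind. The windows are chr9:62525412-62525711 (forward) for Itga11, chr15:102062317-102062616 (reverse) for Itgb7, chr15:103197173-103197472 (reverse) for Itga5 and chr16:33829501-33829800 (forward) for Itgb5.
Itga11: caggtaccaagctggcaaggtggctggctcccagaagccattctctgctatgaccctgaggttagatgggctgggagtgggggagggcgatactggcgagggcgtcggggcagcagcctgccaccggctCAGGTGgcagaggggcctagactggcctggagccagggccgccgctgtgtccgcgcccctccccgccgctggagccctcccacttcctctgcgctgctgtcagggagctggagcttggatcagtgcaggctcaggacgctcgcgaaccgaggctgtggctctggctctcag
Itgb7: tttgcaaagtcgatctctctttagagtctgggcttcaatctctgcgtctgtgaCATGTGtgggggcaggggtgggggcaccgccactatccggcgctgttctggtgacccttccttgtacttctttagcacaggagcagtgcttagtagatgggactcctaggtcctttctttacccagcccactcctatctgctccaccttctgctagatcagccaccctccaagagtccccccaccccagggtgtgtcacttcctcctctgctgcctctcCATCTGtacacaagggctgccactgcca
Itga5: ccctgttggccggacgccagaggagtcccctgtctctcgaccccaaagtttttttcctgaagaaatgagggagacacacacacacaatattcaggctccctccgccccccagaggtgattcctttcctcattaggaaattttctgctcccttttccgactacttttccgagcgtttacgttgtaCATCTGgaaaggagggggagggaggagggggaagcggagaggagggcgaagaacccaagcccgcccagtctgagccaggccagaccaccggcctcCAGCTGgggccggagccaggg
Itgb5: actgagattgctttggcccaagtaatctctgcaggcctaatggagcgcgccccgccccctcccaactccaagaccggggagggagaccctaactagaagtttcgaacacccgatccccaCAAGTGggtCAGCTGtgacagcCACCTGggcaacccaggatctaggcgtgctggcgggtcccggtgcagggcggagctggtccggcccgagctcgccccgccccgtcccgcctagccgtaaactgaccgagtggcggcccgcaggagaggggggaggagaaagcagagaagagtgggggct
CANNTG and CAGCTG, a form of it, were searched, and both read the same on either strand. CANNTG occurred once in the Itga11 window, at 2 places in those of Itga5 and Itgb7 and at 3 places in that of Itgb5. Itga5 and Itgb5 each held 1 CAGCTG and Itga11 and Itgb7 none, and in Itga5 it lay near the 3′ end of the window, past the RefSeq start. RefSeq gave 26 promoter entries for 23 of the members, of which 84.6% held CANNTG and 30.8% held CAGCTG, against 72.3% and 16.3% of all 32851 promoters in the table. The 30.8% is 8 entries, most of them of unmeasured members. Of the 13 entries of measured members, 11 held CANNTG and 3 held CAGCTG. Itga7 had no entry. A match is a description of the letters and not a binding site.

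The laminin chains were led by Lamb1, Lamc1 and Lamb2. Lamb1 was at 19.2 RPKM in the control, 23.8 RPKM under overexpression and 21.2 RPKM under knockdown. Its ratio was 1.24 under overexpression (1.08 to 1.44) and 1.11 under knockdown (0.945 to 1.29). Lamb2, a beta chain found at the neuromuscular junction, was at 14.4, 12.2 and 13.4 RPKM. Both of its intervals against the control held 1 (0.6998 to 1.03 and 0.767 to 1.13). The RPKM of Lamb1 over that of Lamb2 was 1.33 in the control, 1.95 under overexpression and 1.58 under knockdown. Lamb3, best known from epithelia, stood at 5.29, 5.62 and 5.25 RPKM. Its ratios to the control were 1.06 (0.741 to 1.51) and 0.993 (0.674 to 1.44), so a 2-fold difference lay outside both intervals.

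Lamc1, the gamma chain of most laminins, was at 18.4 RPKM in the control and at 16.5 RPKM in both other libraries. Its ratios were 0.899 (0.778 to 1.04) and 0.898 (0.772 to 1.04), and overexpression over knockdown was 1.002 (0.837 to 1.20). A 2-fold difference in Lamc1 thus lay outside the interval in each comparison. Lamc3 had 1 read, under knockdown.

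Of the laminin alpha chains, which carry the site that integrins bind, only Lama5 was measured. Lama5 was at 8.27 RPKM in the control, 9.80 RPKM under overexpression and 7.43 RPKM under knockdown, from 483, 235 and 159 reads. The ratio was 1.19 under overexpression (1.01 to 1.39), 0.899 under knockdown (0.747 to 1.08) and 1.32 between the lines (1.07 to 1.62). Lama2, the alpha chain of the muscle basement membrane, missed the filter with 0.722, 1.66 and 0.493 RPKM, from 36, 34 and 9 reads. Its ratio was 2.30 under overexpression (1.397 to 3.78), 0.683 under knockdown (0.289 to 1.44) and 3.37 between the lines (1.58 to 7.99). Its mean of 0.96 RPKM lay just below the threshold, and the lowest means above it were those of Itga11 at 1.42 and Itgb7 at 1.43 RPKM. Lama5 made up 87.1% of the summed laminin alpha RPKM in the control, 82.2% under overexpression and 89.9% under knockdown, and Lama2 7.61%, 13.9% and 5.97%. Lama1, the chain of embryonic basement membranes, had 23, 3 and 3 reads, and its intervals of 0.0611 to 1.05 under overexpression and 0.0685 to 1.18 under knockdown held 1. Lama4 had 1, 4 and 2 reads. Summed over all chains of a kind, the alpha chains stood at 9.49, 11.9 and 8.27 RPKM and the beta chains at 38.8, 41.7 and 39.9 RPKM.

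Intervals that left out 1 were counted over the 15 measured members only. Unmeasured members, some of which also had such intervals (Lama2 among them), were not counted. Under overexpression such intervals were found for 4 members above the control (Itga7, Lamb1, Itgb3 and Lama5, 9.8% of all genes) and 5 below it (Itga11, Itgb5, Itga5, Itga3 and Itgav, 8.89%). All 5 below the control were integrins and 2 of the 4 above it were laminin chains, which did not hold under the other scaling given below. Under knockdown this held for Itgb7 above the control (9.37% of all genes) and for Itga5, Itgb5 and Itgb1 below it (10.7%). Between the lines it held for Itga7, Lama5 and Itgb1, all higher under overexpression (9.99%), and for no measured member in the other direction (8.48%). With each library scaled to the same summed RPKM, Itgb3 (0.974 to 1.37) and Lama5 (0.956 to 1.31) no longer stood above the control by this rule, Lamc1 (0.736 to 0.981) and Lamb2 (0.662 to 0.975) stood below it under overexpression, and Itga3, Itgav and Itgb7 stood below knockdown. Whether an interval leaves out 1 depends on the number of reads as well as on the ratio. The median over all measured genes was 92 control reads. Of the measured members named here only Itga11 (56) and Itgb7 (11) had fewer, so the shares of all genes are not matched for reads. The median log2 ratio of overexpression to control was −0.42 over the 6 alpha subunits and 0.09 over the 5 laminin chains.

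Genes that work with integrins and laminins were taken as 5 lists. Of 26 genes that activate integrins or link them to actin, 22 were compared, and none lay 2-fold from the control in either line or between the lines. Of all genes, 3.64% were higher and 3.47% lower at 2-fold under overexpression, and 3.38% and 4.19% under knockdown. Between the lines the shares were 5.83% and 5.11%. None of 22 is not far from these shares. The median log2 ratio was −0.11 under overexpression, −0.22 under knockdown and 0.09 between the lines. Flna, the filamin that binds beta subunit tails, was at 243 RPKM in the control, 169 RPKM under overexpression and 157 RPKM under knockdown, with ratios of 0.696 (0.662 to 0.730) and 0.648 (0.615 to 0.683). It was thus below the control in both lines, as Itga5 and Itgb5 were. Tns3, a tensin of focal adhesions, was at 38.2, 23.3 and 33.0 RPKM, and its overexpression ratio was 0.610 (0.543 to 0.684). The knockdown ratio furthest from 1 in the list at a mean of at least 5 RPKM was that of Ilk, a scaffold at the beta subunit tail (34.9, 25.5 and 19.8 RPKM), at 0.569 (0.433 to 0.738). Between the lines the furthest were Flnc, the muscle filamin, at 1.70 (1.46 to 1.98), and Tln2, the talin of striated muscle, at 0.580 (0.455 to 0.736).

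Of 20 integrin signalling genes, 18 were compared, with median log2 ratios of −0.02, −0.05 and 0.03 for overexpression, knockdown and between the lines. Fyn, a Src family kinase, was the only one 2-fold from the control in a line, 1 of 18 against 3.64% of all genes higher under overexpression. It was at 4.81 RPKM in the control, 12.1 RPKM under overexpression and 4.33 RPKM under knockdown, a ratio of 2.52 (1.87 to 3.40) under overexpression. Its knockdown ratio was 0.901 (0.575 to 1.37). Cav1, the coat protein of caveolae, went apart in the lines, at 73.3, 42.0 and 108 RPKM, with ratios of 0.573 (0.493 to 0.665) and 1.47 (1.32 to 1.64) and 0.390 (0.331 to 0.458) between the lines. Bcar1, an adaptor phosphorylated at adhesions, was at 0.642 of the control under knockdown (0.529 to 0.776).

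All 9 tetraspanins and lateral partners were compared, with median log2 ratios of 0.14, −0.11 and 0.39 for overexpression, knockdown and between the lines. Cd63, a tetraspanin of endosomes and the cell surface, was at 10.0 RPKM in the control, 20.2 RPKM under overexpression and 15.5 RPKM under knockdown. It was 2.02-fold above the control under overexpression (1.32 to 3.08), the only 1 of the 9 to meet the criterion, which 3.64% of all genes met upward. The ratio lay just above the threshold, its interval reached below it, and partner genes were not run under the other scalings. Cd82, a tetraspanin of muscle stem cells, had an overexpression ratio of 1.71 (1.48 to 1.98). Slc3a2, which binds beta subunit tails, was at 19.7, 13.0 and 9.90 RPKM and stood at 0.502 of the control under knockdown (0.370 to 0.672). Between the lines, Sdc4, a syndecan that helps hold fibronectin, was at 1.89 (1.47 to 2.43) and Cd47 at 0.555 (0.348 to 0.874).

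Of 16 basement membrane partners of laminin, 11 were compared, with median log2 ratios of 0.12 under overexpression, −0.26 under knockdown and 0.47 between the lines. The collagen IV chain Col4a1 was at 12.9 RPKM in the control, 19.7 RPKM under overexpression and 6.20 RPKM under knockdown, and Col4a2, its partner in the collagen IV trimer, was at 16.4, 22.2 and 8.45 RPKM. Both were thus highest under overexpression and lowest under knockdown. For Col4a1 the ratios were 1.53 (1.31 to 1.78) and 0.481 (0.373 to 0.614), and 3.17 between the lines (2.46 to 4.14). For Col4a2 the knockdown ratio was 0.514 (0.412 to 0.636) and the ratio between the lines 2.63 (2.10 to 3.33). Agrn, which binds laminin and clusters acetylcholine receptors, was at 0.552 of the control under overexpression (0.430 to 0.701). Ntn4, a netrin that binds laminin gamma chains, had 2, 13 and 6 reads and so a wide interval (3.59 to 145 around a ratio of 15.8 under overexpression, and 1.47 to 83.0 around 8.20 under knockdown). It passed the filter only through the overexpression library (2.56 RPKM, against 0.162 RPKM in the control and 1.33 RPKM under knockdown). Ntn4, Nid1, Nid2, Dag1 and Fn1 were named after their values were seen. Nid1, which joins laminin to collagen IV, was at 54.9, 81.0 and 50.4 RPKM, and its paralogue Nid2 at 36.6, 24.9 and 38.0 RPKM, so that Nid1 was above the control under overexpression (1.48, 1.36 to 1.60) and Nid2 below it (0.680, 0.590 to 0.782). Dag1, the dystroglycan receptor of laminin, was at 55.8, 50.2 and 46.7 RPKM.

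Of 21 integrin ligands other than laminin, 16 were compared, with median log2 ratios of −0.10, 0.0009 and −0.20. At 2-fold, 2 were higher and 1 lower than the control under overexpression, and 3 were higher and 2 lower under knockdown, where the shares of all genes were 3.64%, 3.47%, 3.38% and 4.19% in that order. Npnt, the nephronectin ligand of Itga8, was at 5.08 RPKM in the control, 16.3 RPKM under overexpression and 11.6 RPKM under knockdown, with ratios of 3.22 (2.45 to 4.23) and 2.28 (1.68 to 3.10). Thbs2, a matricellular thrombospondin, was at 11.4, 33.1 and 17.0 RPKM, and 2.90-fold above the control under overexpression (2.51 to 3.35). Thbs1, of the same family, was the one lower under overexpression, at 186, 90.7 and 208 RPKM, and was at 0.436 between the lines (0.406 to 0.469). Thbs1 and Thbs2 thus lay on opposite sides of the control in the overexpression library. Ctgf, a matricellular growth regulator, was at 21.7, 39.9 and 4.65 RPKM, at 0.214 of the control under knockdown (0.1303 to 0.334) and 8.58 between the lines (5.46 to 14.2). Fn1, the fibronectin ligand of Itga5, was at 478, 591 and 420 RPKM, with ratios of 1.24 (1.21 to 1.26) and 0.878 (0.854 to 0.903). Fn1 was thus above the control under overexpression, where Itga5 was below it.

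**Figure D4:**
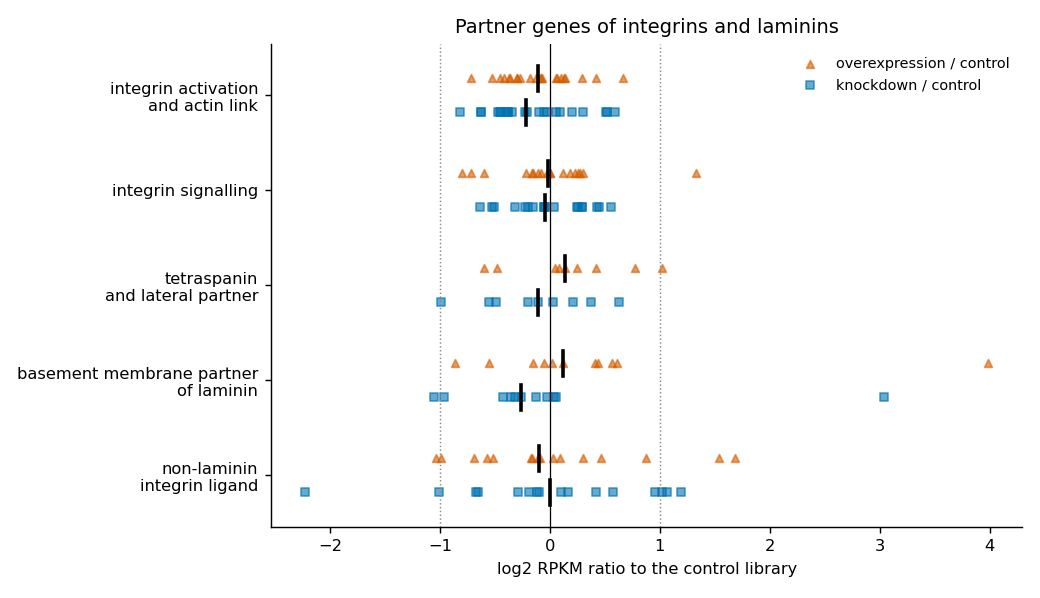
Log2 ratio of the compared members of the 5 partner lists (1 point per gene) for overexpression over control (triangles) and knockdown over control (squares), with a black tick at each list's median and dotted lines at 2-fold. The 22 genes of integrin activation and actin link all lie within 2-fold, and 3 of the 16 ligands other than laminin lie beyond it in overexpression over control. Of all genes, 3.64% lie at least 2-fold higher and 3.47% lower in overexpression over control, and 3.38% and 4.19% in knockdown over control.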

How the data were processed

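Polyadenylated RNA of 3 stable C2C12 lines, 1 library each, had been mapped by the authors with TopHat (mm9 build, and version 1.4.1 by the submitters' processing notes), and DEGSeq was used for the read coverage of each gene. The deposited values are RPKM per gene, and both the gene annotation and the handling of multiply mapped reads were not given in the sources used here.

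Ratios were taken from the RPKM as deposited, with no pseudocount, for genes with a mean of at least 1 RPKM. Groups came from the sample titles. The members and gene lists were chosen with earlier results of these data known. Read totals were found as those at which genes of few reads came out whole at GENCODE lengths (within 1e-05), which 33.5%, 30.5% and 31.5% of 1500 genes did (control, overexpression, knockdown). The reads of a gene were taken at an annotated length, at a multiple of the shortest whole length within 1% of one, or otherwise at the shortest whole length of at least 200 nt, which gives a lower estimate. Reads were recovered in all 3 libraries for all 10172 measured genes, with medians of 92, 38 and 33. Exact Clopper-Pearson 95% intervals of ratios and shares came from these reads, and the steps were tested on simulated data. With 1 library per line no p-value was computed. Every measured member was named, with its ratio where it was 2-fold or its interval left out 1. Of each partner list, the up to 2 genes furthest from 1 at a mean of at least 5 RPKM were named in each comparison. Gene positions are those of GENCODE on mm9. Promoters came from the RefSeq table. Scripts ran in Python 3.11.15 with scipy 1.17.1, pandas 2.3.3, numpy 2.4.6 and matplotlib 3.10.9. Alternatives were other filters, 1 RPKM added, other scalings, a 1.5-fold threshold and a call on the interval. Results for 2 further genes are left out.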

Additional observations from a re-analysis of the deposited data

How the results depend on the processing

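Itga7 was at least 2-fold higher with overexpression, against the control and against knockdown, under every alternative run. In overexpression over control, 6 of 26 members compared were higher and 4 lower with no filter (6.91% and 12.7% of all genes), where the median log2 ratio was 0.20. There, 0 were lower at a mean of at least 5 RPKM, 0 lower with 1 RPKM added and 2 lower at 1.5-fold (9.52%). In knockdown over control, 4 of 26 were higher and 5 lower with no filter (6.95% and 13.2% of all genes), 0 higher at a mean of 5 RPKM or with 1 RPKM added, and 2 lower at 1.5-fold (12.1%). In overexpression over knockdown, 4 of 24 were higher and 5 lower with no filter (6.56% and 12.2%), and 0 were lower at a mean of 5 RPKM, with 1 RPKM added or when the interval also had to leave out 1, and 2 lower at 1.5-fold (12.6%). Scalings of the intervals were tried after seeing the data. With each library at the same summed RPKM, 2 measured members kept an interval above 1 in overexpression over control. In overexpression over knockdown 3 had one below 1, where centring on the median gene gave 1. By reads, the share of Itga7 among laminin-binding subunits was 39.4% in the control, the laminin-binding share 43.0%, 64.7% and 47.8% and the RGD-binding share 53.8%, 33.9% and 49.1% in the control, overexpression and knockdown libraries. With 1 RPKM added, Itga11 and Itgb7 were no longer 2-fold from the control. The no-filter counts include members with at most 36 reads in any library, and the added 1 RPKM shrinks low genes by construction. No paired analysis was possible because each line has 1 library, and no replicate could be left out. Depth limits Itga6, Itga11, Itgb7 and Lama2, which rest on 5 to 56 reads a library.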
